A study of Pteromalus puparum with 9 samples.

Results

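Among 21808 ID stems counted in the wasp Pteromalus puparum, 89 stood far higher in the salivary gland reservoir than in the gland duct and the carcass. An ID stem is a transcript ID without its isoform number and serves here as a proxy for a gene; a trailing x in an ID was kept as part of the stem. A stem belonged to the set when its mean in the reservoir was at least 20 CPM (count per 1000000 after TMM scaling), at least 4 times the mean in the duct and at least 4 times the mean in the carcass, with all 3 reservoir libraries above the other 6. These measured values chose the 89 stems, so the height of the reservoir over the other tissues is given as a description and is not tested. All 3 groups came from wild-type animals of the species, with no treatment in the labels: 3 libraries of salivary gland duct, 3 of salivary gland reservoir and 3 of carcass, the last not defined further. The sources used here give no life stage, sex, age or number of animals per library, and the labels name no batches that would divide the 9 libraries.

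Pteromalus puparum is a parasitoid wasp whose larvae develop inside butterfly pupae. In insects the salivary (labial) glands secrete saliva that is conducted through ducts to the mouthparts, and where a gland has a reservoir, saliva is held there before release. The wall of duct and reservoir is an epithelium with its own RNA, and tissue libraries report that RNA together with any from attached cells.

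The deposited tables do not pair IDs with gene names or descriptions, so no stem could be given a function, a gene family or a sequence, and the tissue labels could not be checked against defining marker genes. Library totals ran from 18690598 to 22640711 estimated counts. A count of 0 in 1 library allows up to 0.0909 to 0.21 CPM, and 3 counts over all libraries of a tissue correspond to 0.05 CPM for duct, 0.063 CPM for reservoir and 0.0353 CPM for carcass. These floors cover counting error only. In bulk tissue, fewer cells of a type and less RNA per cell cannot be told apart. TMM factors spanned 0.7458 to 0.8195 for reservoir, 0.9489 to 1.036 for duct and 1.083 to 1.633 for carcass libraries, and the size of the set depended on the scaling. With libraries scaled by size alone 54 stems met the rule, all of them among the 89. With RLE scaling 102 did, and with TMM factors from tested stems 90 did, each time including all 89. With the authors' TPM in place of CPM, which also scales for length and leaves out reservoir replicate 2, 49 did, of which 42 were among the 89.

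The 89 stems took a small part of the RNA outside the reservoir and a larger part within it. Their share of all counts was 9.37%, 8.09% and 7.15% in reservoir replicates 1 to 3, 1.77%, 1.68% and 1.94% in the duct, and 0.0767%, 0.0782% and 0.0577% in the carcass. The mean share was 8.21% ± 1.11 in the reservoir, 1.79% ± 0.134 in the duct and 0.0709% ± 0.0114 in the carcass (SD, n = 3 each). The tissues did not overlap, which for the reservoir follows largely from the rule of choice. The set was uneven: 15 stems had a reservoir mean of at least 1000 CPM, 38 lay between 100 and 1000 CPM, and 36 lay below 100 CPM, with a median of 142 CPM. The stem with the highest CPM alone held 22.5% of the set's reservoir counts, the top 3 held 49.8% and the top 10 held 79.6%.

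The stem with the most reservoir counts was PB.4048x, with 34129, 24898 and 14304 CPM in reservoir replicates 1 to 3. Its duct libraries read 3102, 5700 and 5736 CPM, with 49.8, 23.1 and 27.3 CPM in the carcass. Reservoir replicate 1 was thus well above replicate 3, yet the lowest reservoir library was still above the highest duct library. The mean was 24444 ± 9921 CPM in the reservoir, 5.04 times the duct mean of 4846 ± 1510 CPM and 731 times the carcass mean of 33.4 ± 14.4 CPM (SD, n = 3 each).

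Ppup025070 followed with 19808, 14386 and 15776 CPM in the reservoir. Its duct libraries read 1118, 1274 and 1559 CPM and its carcass libraries 20.1, 8.42 and 3.47 CPM. Among the 6 stems with the highest reservoir CPM it had the widest gap to the duct, with a reservoir mean 12.6 times as high, and its 3 duct libraries lay close together. PB.6186x read 10598, 13664 and 11681 CPM in the reservoir libraries, 2741, 1409 and 3229 CPM in the duct libraries and 8.99, 53.9 and 15 CPM in the carcass. Carcass replicate 2 was the highest carcass library of PB.6186x, and carcass replicate 1 the highest of Ppup025070. PB.7556 read 13352, 9045 and 5975 CPM in the reservoir libraries and 1710, 2665 and 2531 CPM in the duct libraries. Its carcass libraries read 24.9, 8.84 and 3.94 CPM, and its reservoir mean was only 4.11 times the duct mean.

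PB.692 and PB.5616 completed the 6 stems with the highest reservoir CPM. PB.692 read 4120, 5965 and 5583 CPM in the reservoir libraries, 1851, 686 and 444 CPM in the duct libraries and 1.89, 3.66 and 2.18 CPM in the carcass. Duct replicate 1 stood well above the other duct libraries of this stem. PB.5616 read 5197, 5354 and 4723 CPM in the reservoir libraries, 797, 253 and 756 CPM in the duct libraries and 10.1 and 16.1 CPM in carcass replicates 1 and 2, with no count in carcass replicate 3. Its reservoir libraries lay close together and its duct replicate 2 was low.

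**Figure D1:**
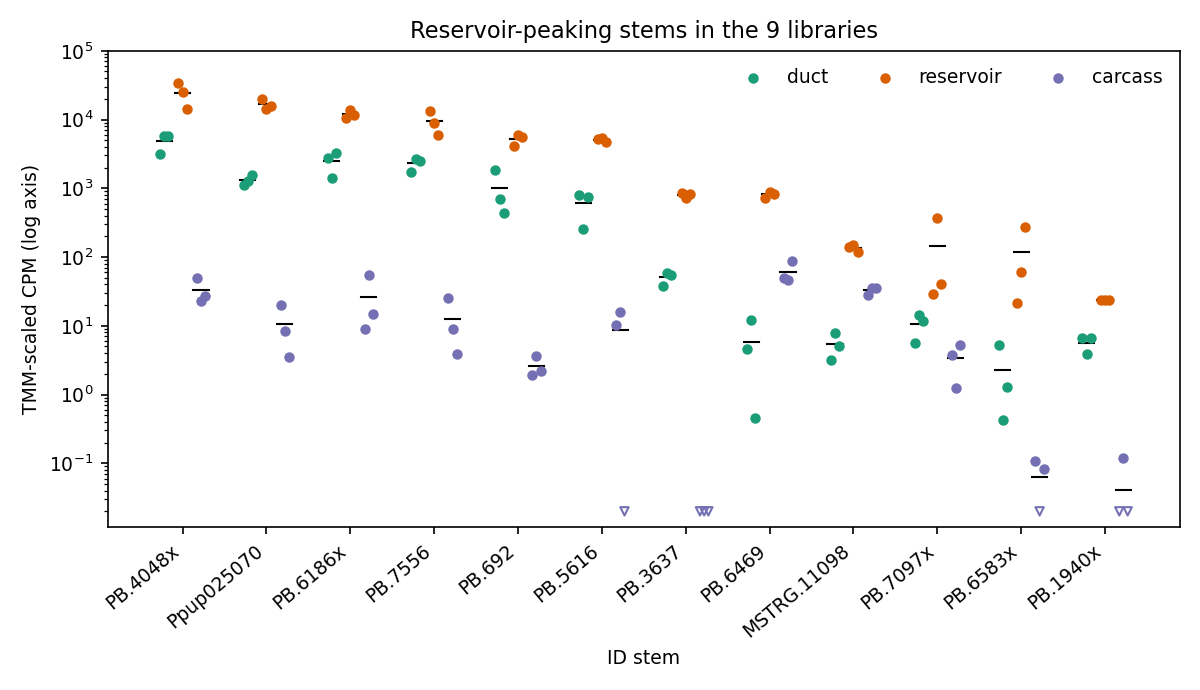
TMM-scaled CPM (log axis) of 12 reservoir-peaking stems, with 1 point per library (replicates 1 to 3 from left to right), black bars at the tissue means (n = 3) and open triangles at the bottom for libraries without a count. Orange reservoir points lie above green duct points and violet carcass points in each stem by the rule of choice, while the order of duct and carcass, which the rule left free, turns in PB.6469 and MSTRG.11098.

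Levels can be compared between stems only per length, in the authors' TPM, for which the reservoir means rest on replicates 1 and 3. On that scale PB.6186x led with a mean of 17523 TPM in the reservoir, ahead of PB.7556 with 11728, PB.4048x with 11202 and Ppup025070 with 7304. MSTRG.2555 stood 26th by CPM and 6th by TPM, with 3435 TPM in the reservoir, 707 TPM in the duct and 36.9 TPM in the carcass; it was chosen after its values were seen. Ppup166820, also chosen afterwards, moved from 49th to 15th. Counts per TPM measure the effective length that the quantification assumed, up to a constant per library. By that measure the 89 stems had a median effective length of 0.83 of the median stem with at least 20 CPM in the reservoir, with quartiles of 0.366 and 1.07. The other stems of that level had quartiles of 0.591 and 1.54 around a median of 1.01. Of the 89, 33 lay under the lower quartile of the other stems and 12 above their upper quartile. Ppup166820 and MSTRG.2555, at 0.0356 and 0.0395, had the lowest values, and for such short effective lengths TPM depends strongly on the assumed fragment length. The ID classes differed in this respect. Members of the PB class with x had a median of 0.678 against 1.2 for other stems of that class, and the 8 Ppup members had 0.502 against 0.258. The gap was small for PB without x, at 0.915 against 0.988, and for MSTRG, at 0.709 against 0.768.

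The 89 stems split by ID class into 36 PB stems with x, 35 PB stems without, 10 MSTRG stems and 8 Ppup stems. PB stems with x made up 40.4% of the set and 22.3% of the 3039 stems with at least 20 CPM in the reservoir, and PB stems without x made up 39.3% and 70.5%. MSTRG stems made up 11.2% and 4.18%, and Ppup stems 8.99% and 2.24%. The sources used here do not explain the prefixes or the x. Stems of different classes may overlap in 1 locus and may then have split reads between them.

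The level in the duct spread widely over the set, from 0.195% to 24.9% of the reservoir level with a median of 13.9%, where the rule allows at most 25%. In 47 of the 89 stems the reservoir mean was less than 8 times the duct mean, and in 5 it was at least 100 times as high. Of these 5, PB.3969 had the widest gap, with reservoir libraries at 619, 666 and 355 CPM, duct libraries at 0.723, 1.09 and 1.38 CPM, and a ratio of 513. PB.6922x, whose reservoir libraries read 70, 92.2 and 103 CPM and whose duct libraries read 0.103, 0.285 and 0.256 CPM, had a ratio of 412 that rests on 13 duct counts. PB.6170x, PB.6469 and PB.637 had ratios of 168, 140 and 100.4. All 5 were named because they make up that small group, and PB.6469 also under the rule for duct against carcass. Every one of the 89 stems had at least 1 count in the duct.

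The carcass level ran lower, with a median of 0.286% of the reservoir level and a highest value of 24.3%. In 54 stems the reservoir mean was at least 100 times the carcass mean, and in 10 it was less than 8 times as high. PB.3637, PB.7860x and PB.1718x had no carcass count. Against a floor of 3 counts summed over the carcass libraries, their reservoir levels of 794 ± 72.6, 93 ± 23.2 and 30.9 ± 13.4 CPM (SD, n = 3 each) were at least 22486-fold, 2632-fold and 875-fold higher. A further 6 stems had 1 to 3 carcass counts.

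The rule set the same limits on duct and carcass, so it used the values of both but left their order free. The comparison between duct and carcass asks which of these 2 tissues held more of the stems that peak in the reservoir. The tested stems given below as background did not have to meet these limits. How much of the gap between them and the set comes from the rule was not tested. Of the 89 stems, 66 (74.2%) were higher in the duct than the carcass, 4 (4.49%) were lower and 19 did not pass the test (edgeR quasi-likelihood test, Benjamini-Hochberg adjusted p under 0.05 over all tested stems, and a log2 fold change of 1 or more in size). Over all 12143 tested stems 16.3% were called higher in the duct and 22% lower. Among the 3039 tested stems with at least 20 CPM in the reservoir these shares were 29.1% and 5.4%. The median log2 fold change of duct over carcass was 5.13 in the set, -0.05 over all tested stems and 0.41 over stems with at least 20 CPM in the reservoir. All 89 passed the filter on low counts over the 9 libraries, and 85 of them also did so on duct and carcass libraries alone, where 62 were called higher. MSTRG.7407, PB.637, PB.6583x and PB.6922x passed only with the reservoir libraries in the table, with 2 to 6 carcass counts each, and the first 3 of these are among the 66. A duct mean of at least 1 CPM was found in 85 stems and a carcass mean of that level in 53.

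All 3 duct libraries lay above all 3 carcass libraries in 71 stems, all 3 carcass libraries lay above the duct libraries in 5, and the libraries overlapped in 13. These are 79.8% and 5.62% of the set, where the shares over all tested stems were 28.8% and 34% and those over tested stems with at least 20 CPM in the reservoir were 51.2% and 15.9%. By reservoir CPM, each of the 15 with at least 1000 CPM in the reservoir was higher in the duct. Between 100 and 1000 CPM 25 of 38 were higher and 3 lower, and below 100 CPM 26 of 36 were higher and 1 lower. Shares over all tested stems within each of these levels were not computed, so no trend with level is read from these counts. RLE scaling left these values nearly as they were, with a median of -0.05 over all stems, 16.4% and 21.9% of them called, and 66 and 4 of the 89. With libraries scaled by size alone the median over all stems was -0.51, 11.7% of them were called higher and 29.1% lower, and 63 and 5 of the 89 were called. With limma on log2(TPM + 1), which changes the measure and the test as well, the median over all stems was -0.74, with 8.32% higher and 36.5% lower, and 53 and 5 of the 89. A pseudocount of 0.1 gave a median of -1, with 9.42% and 48%, and 60 and 8 of the 89.

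**Figure D2:**
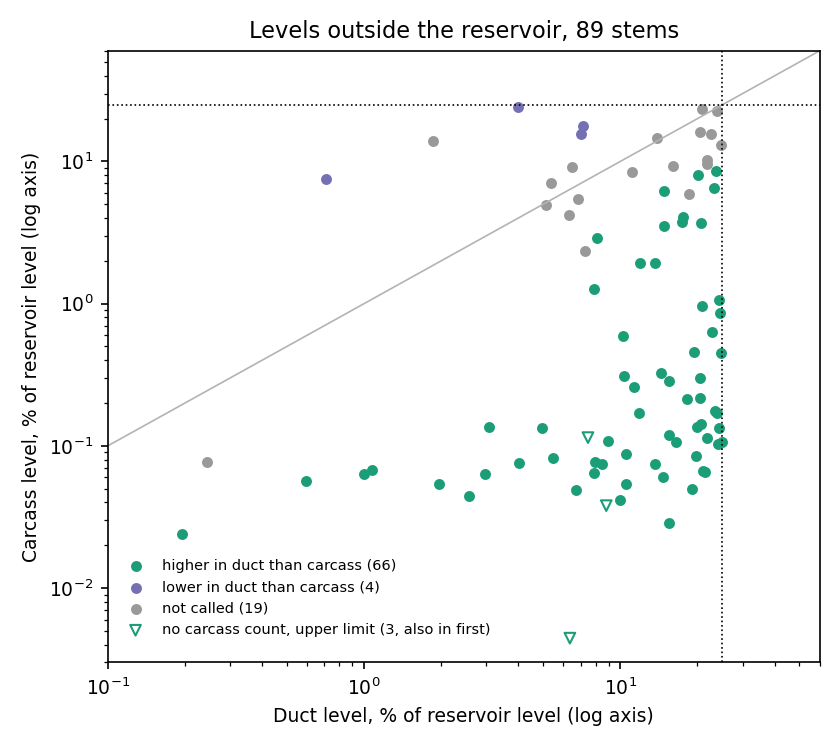
Mean level in the duct and in the carcass as a percent of the mean reservoir level (log axes, n = 3 libraries per tissue), with 1 point per stem, dotted lines at the 25% set by the rule and a grey line where duct and carcass are equal. The 66 green stems called higher in the duct spread below the line down to carcass levels under 0.1% of the reservoir, 4 violet stems called lower in the duct lie above it, and triangles mark the upper limit for the 3 stems without a carcass count.

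By fitted log2 fold change, PB.3637 and PB.7860x were the most raised in the duct among stems picked by the naming rule. These fitted values, 13.08 ± 0.43 and 10.46 ± 1.32 (SE), rest on no carcass count, so the lower bounds given here are the firmer measure. The bound of PB.7860x does not settle its order against stems with carcass counts, such as PB.692. PB.3637 had no carcass count; it read 38.5, 58.7 and 54.2 CPM in the duct and 849, 712 and 822 CPM in the reservoir libraries. Its duct mean of 50.5 ± 10.6 CPM was at least 1429-fold above the carcass floor (edgeR adjusted p = 5.26e-06). PB.7860x read 3.41, 4.88 and 16.3 CPM in the duct and 117, 91.6 and 70.5 CPM in the reservoir, again with no carcass count. Its duct mean of 8.19 ± 7.05 CPM was at least 232-fold above the carcass floor (edgeR adjusted p = 0.00088), and duct replicate 3 stood apart from the other duct libraries. The 6 stems with the highest reservoir CPM were higher in the duct by log2 fold changes of 6.11 ± 1.46 (PB.5616, edgeR adjusted p = 0.00796) to 8.59 ± 0.72 (SE; PB.692, edgeR adjusted p = 3.15e-05). PB.4048x lay between these, at 7.19 ± 0.59 (edgeR adjusted p = 2.96e-05).

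The stems that were lower in the duct than in the carcass formed a small group of moderate reservoir level. PB.6469 read 4.65, 12.3 and 0.461 CPM in the duct, 720, 895 and 834 CPM in the reservoir libraries and 50.2, 46.4 and 87.4 CPM in the carcass. Duct over carcass was -3.39 ± 0.88 on the log2 scale (SE; edgeR adjusted p = 0.0115), and its reservoir mean was 140 times the duct mean but 13.3 times the carcass mean. Duct and carcass did not overlap, although the duct libraries differed widely among themselves. MSTRG.11098 read 3.2, 7.97 and 5.02 CPM in the duct, 141, 148 and 117 CPM in the reservoir libraries and 28.2, 35.1 and 35.3 CPM in the carcass (log2 fold change -2.59 ± 0.3; edgeR adjusted p = 0.000191). PB.6614, at -1.14 ± 0.24 (edgeR adjusted p = 0.00424), and PB.3440, at -1.3 ± 0.31 (edgeR adjusted p = 0.00728), were lowered less. In these 4 stems the duct had the lowest mean of the tissues.

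**Figure D3:**
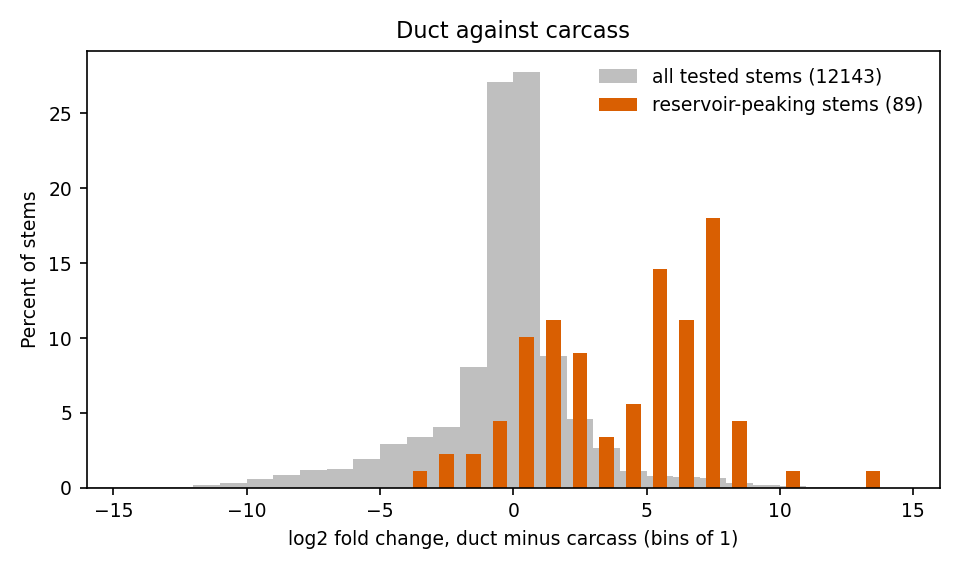
Percent of stems per bin of 1 in the log2 fold change of duct over carcass from the edgeR fit, with grey bars for all 12143 tested stems and orange bars for the 89 reservoir-peaking stems. Grey bars centre near 0 with a median of -0.05, while the orange bars have a median of 5.13 and a few stems below 0.

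Since the rule was applied to all 9 libraries, the choice was repeated with replicate 1, 2 or 3 of every tissue left out, and the left-out libraries were then read. Without replicates 1, 89 stems met the rule, and in the left-out libraries 63 of them (70.8%) had a reservoir value at least 4 times both others. Without replicates 2, 68 of 84 (81%) did, and without replicates 3, 64 of 106 (60.4%) did. A reservoir value at least 2 times both others was found in 81 (91%), 82 (97.6%) and 96 (90.6%). In the left-out libraries the reservoir was the highest of the tissues for 89 of 89, 83 of 84 and 104 of 106 stems. Between 77 and 82 of the stems chosen each time were among the 89.

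The reservoir libraries differed among themselves more in this set than in other stems with at least 20 CPM in the reservoir, which were not matched on level. The median coefficient of variation over the 3 reservoir libraries was 19.5% in the 89 stems and 9.33% in the other stems with at least 20 CPM in the reservoir. The same rule turned to the duct gave 251 stems with a median of 20.9% over the duct libraries against 11% for other stems, and turned to the carcass it gave 550 stems with 21.1% against 14.8%. The difference between a set and its background was thus seen with each tissue and was not tested. Reservoir replicate 1 was the highest in 41 stems, replicate 2 in 28 and replicate 3 in 20. Relative to the mean of the reservoir libraries, the median stem stood at 1.04 in replicate 1, 1.02 in replicate 2 and 0.889 in replicate 3.

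In some stems a single reservoir library stood well above the others. PB.7097x, the most variable, read 28.6, 370 and 39.9 CPM in reservoir replicates 1 to 3, a coefficient of variation of 133%. PB.6583x, the next, read 21.5, 60.9 and 271 CPM (114%). In PB.7097x replicate 2 was high and in PB.6583x replicate 3 was. Replicate 2 was at least 2 times both others in 5 stems, which were PB.7097x, PB.4549x, MSTRG.2586, MSTRG.2587 and Ppup115540. Replicate 3 was so in 3 stems, PB.6583x, PB.6178x and PB.1509x, and replicate 1 in none. These lists were made after the values were seen. Against the carcass PB.6583x was called higher in the duct by 5.15 ± 1.67 (log2, SE; edgeR adjusted p = 0.0303) on 5 carcass counts. This stem was tested only because its reservoir libraries passed the count filter. The call was lost without duct replicate 1 or without any single carcass replicate (edgeR adjusted p from 0.0718 to 0.111). With limma on log2(TPM + 1) the call was lost as well (log2 2.57, limma adjusted p = 0.0551). PB.7097x was not called (1.65 ± 1.01; edgeR adjusted p = 0.206) and was called without reservoir replicate 2 (1.66; edgeR adjusted p = 0.0407). At the other end PB.1940x read 23.6, 24 and 24 CPM and PB.2142 read 58.8, 56.3 and 56 CPM, coefficients of 0.974% and 2.65%. In 17 stems the coefficient was under 10% and in 10 it was over 50%.

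**Figure D4:**
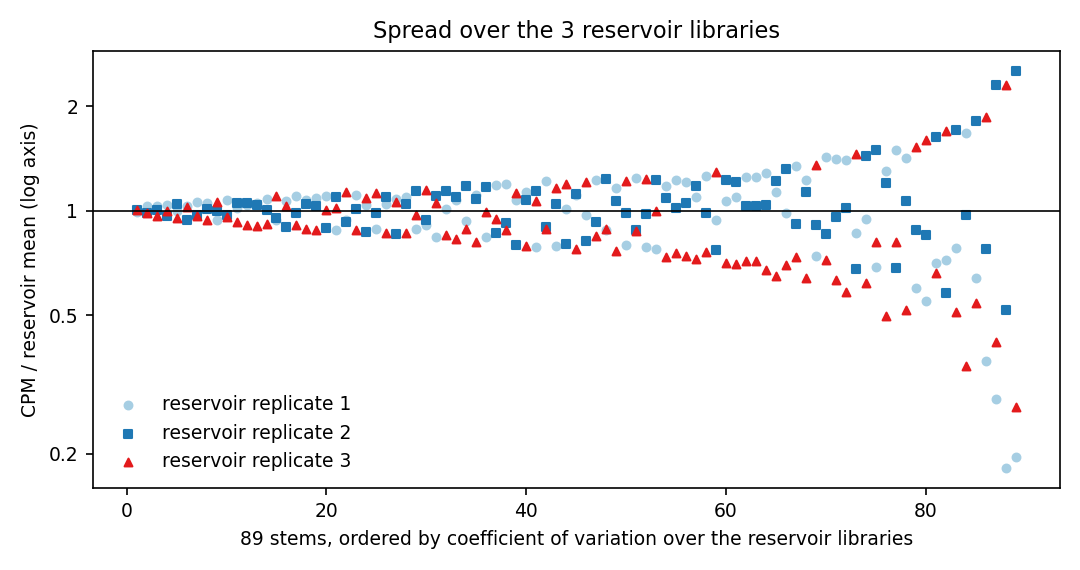
CPM of each reservoir library relative to the mean of the 3 reservoir libraries (log axis) for the 89 stems, ordered by coefficient of variation. Most stems stay near 1, red triangles for replicate 3 lie more often below the line, with a median of 0.889, and at the right single libraries stand far above the rest, such as replicate 2 in PB.7097x and replicate 3 in PB.6583x.

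The 89 stems held 267 transcript models. A single model made up 53 of the stems (59.6%, against 55.8% of tested stems), 36 had more and 4 had at least 10. In the 36, the leading model took a median of 77.2% of the stem's reservoir counts and between 27.5% and 100%, with at least 90% in 12 stems and at least 50% in 32. In 30 of them the same model led in all 3 reservoir libraries. Where every reservoir and duct library held at least 100 counts of the stem, the duct led with the same model in 22 of 25 stems, and the leading share differed by a median of 3.56 percentage points. Where every reservoir and carcass library held that many counts, the leader was the same in 9 of 14 stems, with a median difference of 15.1 percentage points. The 14 are not a subset of the 25, and shares over other stems with several models were not computed. The comparisons with duct and carcass are therefore not ranked. Isoforms of a stem share sequence, so these shares depend on how the quantification divided reads.

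Usage of models between duct and carcass, which the rule did not use, was tested in 34 of the stems and differed in 2 of them, 5.88%, against 16.4% of the 4152 stems tested (limma diffSplice F test on voom values, Benjamini-Hochberg adjusted p under 0.05). PB.3131 was read as PB.3131.1 in the gland, at 92.9%, 87.9% and 92.1% of all its counts in the duct and 92.7%, 94.1% and 93.6% in the reservoir. In the carcass PB.3131.1 took 0%, 46.2% and 0%, and PB.3131.2 took 97.8%, 52.6% and 97.8% (limma adjusted p = 0.000667). The carcass libraries therefore disagreed, with replicate 2 midway, while gland libraries were alike. PB.7110.3 took at least 99.9% of the counts of PB.7110 in every gland library and 56.4%, 43.8% and 38.9% in the carcass (limma adjusted p = 0.00114). The carcass held only 139 counts of PB.7110 over its 3 libraries, where the rest went to PB.7110.1. In the alternatives that tested them the limma or edgeR adjusted p stayed between 2.73e-05 and 0.0401 for PB.3131 and between 4.97e-06 and 0.0141 for PB.7110. The number of stems depended on the test, and so did its side of the background. With edgeR's diffSpliceDGE 10 of 34 (29.4%) differed, against 12.4% of all stems tested, and with the replicate number as a block 7 of 34 (20.6%) did, against 16.7%. Among stems with at least 100 counts in every duct and carcass library 2 of 8 (25%) differed, against 17.5%. Without duct replicate 3, reservoir replicate 1 or reservoir replicate 3, 4 of 34 (11.8%) did, against 11.8%, 13.4% and 13.9%. The data therefore give no firm order between the set and other stems in model usage. On simulated counts with the 2 leading models swapped, the limma test recovered 30.5% of the changed stems, with 4026 stems tested. That simulation used a common dispersion and did not copy the low carcass counts of the set.

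Among stems with at least 100 counts in every reservoir and duct library, the share of the leading reservoir model differed most between these tissues in PB.1038x and PB.2543x, which hold 17 and 40 models. PB.1038.31x took 58.1%, 55.6% and 43.9% of the counts of PB.1038x in the reservoir, 12.6%, 5.57% and 2.43% in the duct and at most 0.395% in a carcass library. PB.2543.35x took 54.7%, 30.3% and 24.6% of the counts of PB.2543x in the reservoir and none in the duct. It led by its mean of 36.5% against 35.1% for PB.2543.9x, but PB.2543.9x led in reservoir replicates 2 and 3, at 37.9% and 32%. The carcass shares of PB.2543.35x were 0%, 100% and 0%, and the 100% rests on 22 counts of the stem. These differences belong to a contrast that chose the stems and were not tested.

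**Figure D5:**
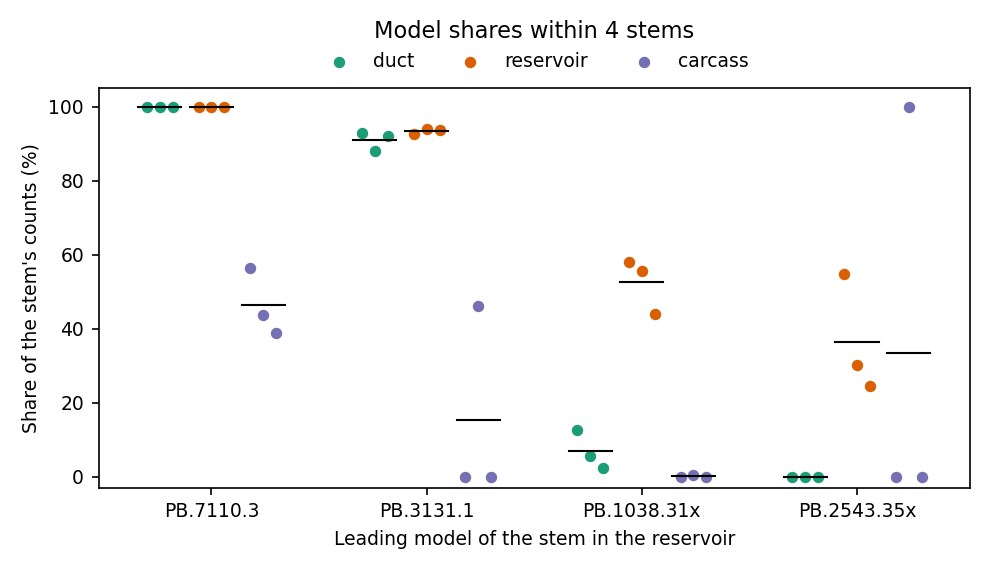
Share of the stem's counts taken by the leading reservoir model of PB.7110, PB.3131, PB.1038x and PB.2543x, with 1 point per library and black bars at the tissue means (n = 3). PB.7110.3 and PB.3131.1 take similar shares in duct and reservoir and less in the carcass, while PB.1038.31x and PB.2543.35x take more in the reservoir than in the duct; the carcass shares of PB.7110.3 and PB.2543.35x rest on few counts.

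Members stood next to each other in the deposited table. In the order in which stems first appear there, 25 of the 89 (28.1%) were directly next to another member, and 34 (38.2%) had another within 10 stems. Among other stems with at least 20 CPM in the reservoir 0.847% were next to a member and 6.92% within 10 stems. The same rule in the other tissues gave adjacency too, in 34.3% of the duct-peaking and 28.5% of the carcass-peaking stems. Among other stems with at least 20 CPM in those tissues, 2.52% and 5.6% were next to such a stem. Along the table the numbers of the PB, PB with x, MSTRG and Ppup stems ran upward in 96.5%, 97.7%, 99.6% and 94.1% of steps within each class, but the sources used here do not say whether the order follows the genome.

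The 34 members formed 14 runs, of which 1 held 4 members. That run was PB.2539x, Ppup131660, PB.4345 and PB.2543x within 9 stems, with reservoir means of 142, 821, 2922 and 1186 CPM, and each was at least 4 times its duct mean by the rule. The run of PB.6177x, Ppup025070 and PB.6178x held members of very different level, at 1060, 16657 and 40.3 CPM. The neighbours PB.6817x and Ppup058560 can be set side by side by library. They read 1218, 1239 and 940 CPM against 1132, 1039 and 746 CPM in the reservoir, and 337, 263 and 216 CPM against 234, 225 and 177 CPM in the duct. MSTRG.2586 and MSTRG.2587, both among the stems high in reservoir replicate 2, were neighbours as well. Members of a run may share reads or a locus, which was not tested, so they are not independent examples. Runs were named after their values were seen.

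The limits of the set were not marked by a gap. Just inside the limit on the duct were PB.2594 and PB.3281x, with reservoir means 4.02 and 4.03 times the duct mean, and just outside were PB.6893x and PB.2523, at 3.999 and 3.99. Just inside the limit on the carcass were MSTRG.11098 and PB.55 at 4.12 and 4.31, and outside were PB.6613x and PB.4143 at 3.95 and 3.31. PB.1940x and PB.5728x, at 23.9 and 24.1 CPM, were the nearest above the limit on level, and PB.1280 and PB.6917, at 19.4 CPM each, the nearest below. Only MSTRG.10102 and Ppup053380 met all limits on means and failed the demand on single libraries. Ppup053380 read 77.6, 127 and 17.9 CPM in the reservoir and up to 20.4 CPM in the duct, so reservoir replicate 3 alone kept it out.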

How the data were processed

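RNA of 9 libraries was measured by strand-specific, paired-end RNA sequencing, per the labels' protocols, and the submitters' processing notes name Salmon 1.9, with the reference build not given in the sources used here. As deposited, the authors' tables hold estimated counts per transcript model, which are whole numbers, so that rounding changed none, and TPM, which is scaled for transcript length. The deposited column of reservoir replicate 2 in the TPM table sums to 2000000 and differs by at most 3e-05 in any model from duct replicate 3 plus reservoir replicate 1. That deposited column was treated as a score, not as TPM, how the authors made it is not stated, and it was not used.

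Counts were summed per ID stem. CPM were scaled by TMM over all stems, and the test by TMM over tested stems, in R 4.3.3 with edgeR 4.0.16. Duct against carcass was fitted to all 9 libraries (filterByExpr, 12143 stems, which hold 99.923% or more of every library's counts; quasi-likelihood F test, 1 coefficient per tissue, common biological coefficient of variation 0.367). Standard errors were derived from the F statistic. Model usage was tested with voom and diffSplice in limma 3.58.1. Alternatives used other scalings, filters and samples, DESeq2 1.42.0 and limma on log2 of the deposited TPM. On simulated counts with known folds between duct and carcass, edgeR recovered 14%, 72%, 100% and 100% of stems changed 2, 4, 8 and 16 times. In that simulation 11953 stems were tested and 13 unchanged stems were called. It used a common dispersion and changed only stems above a minimum mean count. The low carcass counts of the set were not copied, so these rates are not the power for the set.

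Named stems are the 6 with the highest reservoir CPM, the 2 most raised and the 2 most lowered in duct against carcass among called stems with libraries that do not overlap and a higher mean of at least 5 CPM, the 2 with the highest reservoir CPM without carcass counts, the 2 with the largest and smallest spread, the 2 nearest each limit and those with the most changed model usage. The members, lists and tests were chosen with earlier results of these data known. Gene and marker lists needed gene names and were not run. Replicates are labelled as biological, without saying whether animals or pools were separate, so p-values measure the spread between these libraries. Log CPM of replicates correlated at 0.916 to 0.957, and no pair agreed within sampling noise.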

Additional observations from a re-analysis of the deposited data

How the results depend on the processing

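The number of stems in the set was 54 with scaling by library size, 49 with TPM, 269 and 38 when 2 times or 8 times was asked, and 88 to 102 when each library was left out in turn. The number raised in the duct over the carcass was 53 to 67 over all 18 alternatives (59.6% to 75.3% of the set, against 8.32% to 16.9% of all tested stems). With each library left out it was 64 to 67 (71.9% to 75.3%, against 14.3% to 16.9%). The number lower was 8 with limma on log2(TPM + 0.1), against 48% of all tested stems. It was 3 to 5 with each library left out, against 20.1% to 22% of all tested stems. The number with changed model usage (2 of 34, 5.88%, against 16.4% of all stems tested) was 7 with the replicate block (20.6% against 16.7%), 10 with edgeR's diffSpliceDGE (29.4% against 12.4%) and 2 to 4 with each library left out (5.88% to 11.8%, against 11.5% to 17.8%). With the replicate block 66 of the 89 were called higher and 4 lower, as without it. Over all tested stems the block gave 16.2% and 20.6%. Deviations of same-numbered libraries correlated at -0.103 to 0.128, and those of differently numbered libraries at -0.113 to 0.104. With 3 libraries per tissue these values cannot tell whether same-numbered libraries share animals or handling. Of 395 recomputed values of 22 named stems, 380 kept their direction and call. The log2 fold change of PB.3131 (0.92) turned to -0.0503 and -0.0531 with limma on log2(TPM + 1) and log2(TPM + 0.1), and that of PB.1038x (0.56) to -0.51 and -0.57. For PB.55 it was -0.14 and ran from -0.64 to 0.15 with each library left out. None of these 3 was called as reported; PB.3131 was called without duct replicate 1 (1.01) or carcass replicate 3 (1.08). The causes were not tested. Depth limits the carcass values of the 3 stems with no carcass count and the 6 with 1 to 3 counts.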
